A study of Mus musculus with 24 samples.

Results

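After bleomycin injury, a share of lung interstitial macrophages switches on Spp1, and a knock-in reporter allows the cells without that signal to be sorted away from it. The comparison described here sets those EGFP- cells against the same gate from uninjured wild-type lungs. It takes 6 of the 24 libraries of a series of bulk RNA sequencing on sorted mouse lung macrophages, chosen by their labels. Of these, 3 libraries hold CD11b+ SiglecF- EGFP- cells of Spp1-EGFP knock-in reporter mice, collected at day 7 after 3 µg of bleomycin per g of body weight into the trachea. The other 3 libraries hold CD11b+ SiglecF- cells of wild-type C57BL/6J mice, collected at day 7 after PBS by the same route, with no gate on EGFP. Beside these stand 3 libraries of EGFP+ cells of the reporter mice and 3 libraries of wild-type cells without an EGFP gate, both at day 7 after bleomycin and both from the same CD11b+ SiglecF- gate. The labels used here give neither the background strain of the reporter line nor the sex or age of the mice, and they do not say whether the 3 libraries of a group came from separate mice. The p-values below therefore measure the spread between these libraries, which may be technical.

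Interstitial macrophages lie in the tissue around airways and vessels and are replenished by blood monocytes after injury. Bleomycin breaks DNA and injures the alveolar lining, and in mice it leads to an inflammatory phase followed by fibrosis. Osteopontin, the secreted matrix protein encoded by Spp1, marks the lipid-handling, matrix-producing macrophages that gather in fibrotic lung. Type I interferon is made when sensors detect nucleic acids, and it acts through the receptor chains Ifnar1 and Ifnar2 and factors such as Stat2 and Irf9 on genes that hold an interferon-stimulated response element.

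Each library held between 14049139 and 17848593 counts over 49585 genes, of which 16267 passed the filter on low counts. On log2(CPM + 1), where CPM is the usual scaling of counts to library size, libraries of the same group correlated at 0.9923 or more across genes. The highest correlation between libraries of different groups was 0.9838. The reporter libraries and the wild-type libraries differed in sex-linked transcripts. Xist, made from the inactive X chromosome, stood at 944, 789 and 768 CPM in the EGFP- libraries, against 0.191, 0.357 and 0.0641 CPM in the wild-type PBS libraries. Ddx3y, a Y-linked gene, stood at 0.293, 0.221 and 0.126 CPM in the EGFP- libraries, against 257, 251 and 269.5 CPM in the wild-type PBS libraries. In the EGFP+ libraries Ddx3y was at 0.910, 10.3 and 0.634 CPM, so replicate 2 of that group held some Y-linked reads. Treatment, genotype, the EGFP gate and the sex-linked transcripts all differ between the EGFP- libraries and the wild-type PBS libraries, and their parts cannot be told apart. Leaving out every gene of chromosomes X and Y, a choice made after the data were seen, left 9180 of 15784 genes called. Only the adjustment was repeated, on the same p-values. That count therefore cannot say whether differences tied to the sex-linked transcripts reach genes of other chromosomes.

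Spp1 (ENSMUSG00000029304, chromosome 5, 104435118 to 104441050 on GRCm38, plus strand) was low but not absent in the cells sorted as EGFP-. Its level was 461, 582 and 586 CPM in the EGFP- libraries, against 89.2, 85.8 and 90.8 CPM in the wild-type PBS libraries. Each EGFP- library lay above every PBS library, and the change was 2.62 ± 0.12 on the log2 scale (± SE, 3 libraries a group), with an adjusted p of 1.67e-09. Log2 changes, errors and adjusted p-values here are all from edgeR's quasi-likelihood F test with Benjamini-Hochberg adjustment over all 16267 genes. In bulk RNA, fewer cells of a type and less RNA per cell cannot be told apart, so this level does not say how many EGFP- cells held Spp1 transcripts. The EGFP+ libraries had 4187, 4899 and 3631 CPM and the wild-type bleomycin libraries 3575, 3291 and 3005 CPM, so that the EGFP- cells lay between injured and uninjured levels. The sorting markers also moved. Itgam, which encodes CD11b, averaged 373 ± 17.2 CPM in EGFP- cells and 211 ± 11.7 CPM in wild-type PBS cells (SD, n = 3 each), a change of 0.82 ± 0.06. Siglecf, which encodes the protein used to gate out alveolar macrophages, averaged 26.3 ± 0.840 CPM in EGFP- cells and 10.6 ± 2.19 CPM in wild-type PBS cells. That is a change of 1.31 ± 0.12 (adjusted p = 6.90e-10).

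The difference between the groups was broad. At an adjusted p under 0.05, 5062 genes (31.1% of those tested) were higher in the EGFP- libraries and 4381 genes (26.9%) were lower. Of these, 1382 were higher and 1809 lower by at least 2-fold, and the median change over all tested genes was 0.04. With so many genes called, a member of any list below is read against these shares.

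Arg1 and Nos2, which code for enzymes that use arginine, were among the genes with the largest rises. Arg1, which encodes arginase and is a textbook gene of alternative activation, stood at 226, 257 and 268 CPM in the EGFP- libraries, against 2.42, 1.55 and 1.22 CPM in the wild-type PBS libraries. Its change of 7.18 ± 0.16 (adjusted p = 9.96e-16) was the largest rise among autosomal genes that reached 10 CPM in the higher group without overlap between libraries, predicted and immunoglobulin genes aside. Nos2, the inducible nitric oxide synthase, stood at 36.3, 32.0 and 38.3 CPM in the EGFP- libraries, against 0.319, 0.416 and 0.385 CPM in the wild-type PBS libraries. Both genes were thus close to undetected after PBS, and Nos2 changed by 6.54 ± 0.19 (adjusted p = 8.57e-20). Set against wild-type bleomycin cells, Arg1 was lower and Nos2 higher in EGFP- cells. Arg1 averaged 251 ± 21.6 CPM in EGFP- cells and 472 ± 48.9 CPM in wild-type bleomycin cells, while Nos2 averaged 35.5 ± 3.19 CPM in EGFP- cells and 4.09 ± 0.0888 CPM in wild-type bleomycin cells. These differences were -0.91 ± 0.09 for Arg1 and 3.12 ± 0.13 for Nos2, both called.

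The same rule named Fcrlb, Gpnmb, Saa3, Flrt2, Inhba and Il23a. Gpnmb, a transmembrane glycoprotein of phagocytes, stood at 455, 469 and 468 CPM in the EGFP- libraries, against 13, 10.7 and 7.37 CPM in the wild-type PBS libraries, a change of 5.49 ± 0.17 (adjusted p = 1.91e-10). Inhba, which encodes the activin A subunit, a ligand of the transforming growth factor beta family, stood at 141, 140.1 and 135 CPM in the EGFP- libraries, against 4.72, 6.96 and 6.09 CPM in the wild-type PBS libraries. Inhba changed by 4.54 ± 0.10, and its EGFP- libraries also lay above every wild-type bleomycin library (16.6, 18.7 and 18.5 CPM). The EGFP+ libraries were higher still for Inhba, at 184.8, 159.6 and 155.7 CPM. Il23a, the p19 subunit of interleukin-23, averaged 56.9 ± 10.2 CPM in EGFP- cells and 2.54 ± 0.819 CPM in wild-type PBS cells. Saa3, an acute phase protein, averaged 118 ± 26.2 CPM in EGFP- cells and 2.60 ± 1.32 CPM in wild-type PBS cells. Among the genes with the largest falls, those that are not Y-linked were mostly genes of the lung epithelium: Sftpa1, Sftpc, Scgb1a1, Cyp2f2 and Slc34a2. They are taken up below with the markers of other cells. Mme, which encodes the peptidase neprilysin, had 2 counts in all over the 3 EGFP- libraries and averaged 11.5 ± 2.82 CPM in wild-type PBS cells.

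**Figure D1:**
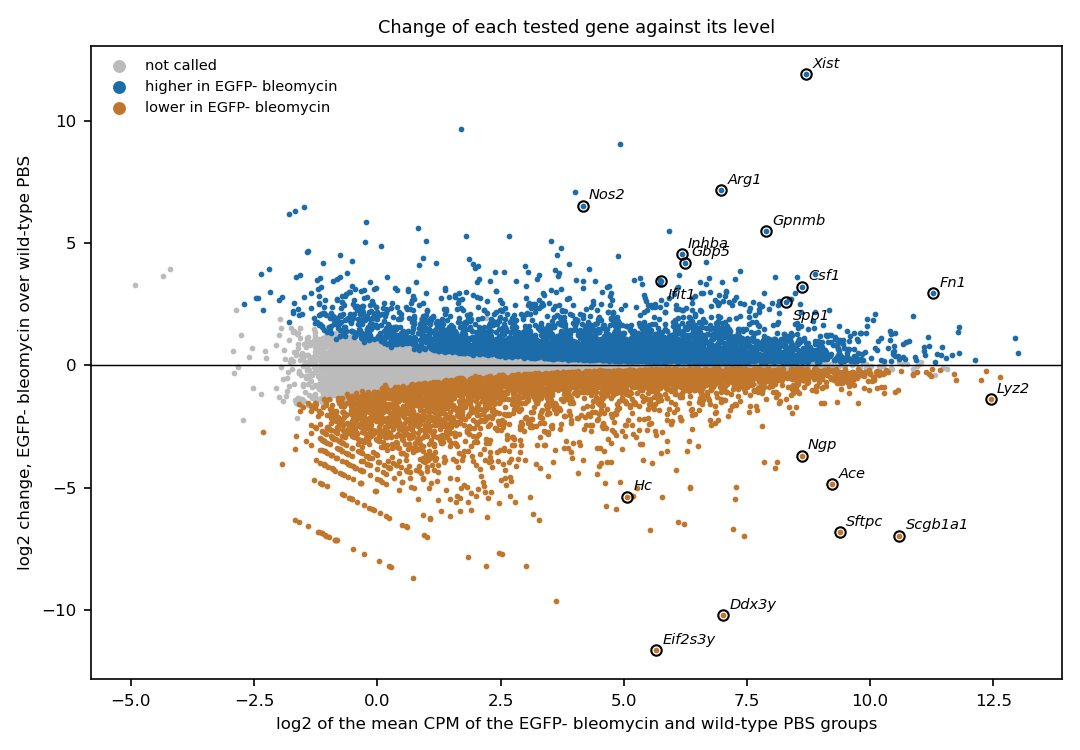
Change of tested genes between EGFP- bleomycin and wild-type PBS cells (vertical axis, log2) against the log2 of mean CPM over the 2 groups (horizontal axis). Each symbol is shown by its gene ID with the highest count, and genes without counts in either group are left out. Called genes are coloured, the fitted change of genes with very few counts depends on the prior count of the fit, and labelled genes are examples from the text, with Arg1 and Nos2 among the highest and the epithelial genes Sftpc and Scgb1a1 among the lowest.

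Genes induced by type I interferon were higher in EGFP- cells almost without exception. Of 25 such genes, 23 were called higher and 2 lower, with a median change of 1.68 against 0.04 over all genes. Ifit1 (ENSMUSG00000034459), which binds viral RNA lacking cap methylation, stood at 96.7, 98.5 and 102 CPM in the EGFP- libraries, against 10.5, 8.09 and 8.14 CPM in the wild-type PBS libraries, a change of 3.48 ± 0.10 (adjusted p = 1.05e-19). Rsad2, which encodes the antiviral protein viperin, stood at 433, 457 and 430.5 CPM in the EGFP- libraries, against 72.9, 78.3 and 74.0 CPM in the wild-type PBS libraries, a change of 2.55 ± 0.08. For both genes the groups lay far apart. Usp18, which removes the ubiquitin-like protein Isg15 from targets and restrains interferon signalling, changed by 3.01 ± 0.12. Cmpk2, a mitochondrial nucleotide kinase, changed by 2.25 ± 0.09. Isg15 itself averaged 185 ± 32.5 CPM in EGFP- cells and 74.2 ± 6.42 CPM in wild-type PBS cells (1.32 ± 0.16). The 2 genes called lower were Epsti1 (-0.20 ± 0.06, adjusted p = 0.00798) and Ifi27l2a (-0.39 ± 0.15, adjusted p = 0.0487).

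The promoters of 3 members that rose are shown because each holds at least 1 match to the core letters of the interferon-stimulated response element, for which the list is known. Each window runs from 250 bases before to 50 bases after a RefSeq start on GRCm38.p6, printed 5′ to 3′ on the strand of the gene, with each match to GAAANNGAA on either strand in capitals (overlapping matches run together). They are Ifit1 at chr19:34640639-34640938 (plus strand), Rsad2 at chr12:26456403-26456702 (minus strand) and Isg15 at chr4:156200769-156201068 (minus strand).
Ifit1: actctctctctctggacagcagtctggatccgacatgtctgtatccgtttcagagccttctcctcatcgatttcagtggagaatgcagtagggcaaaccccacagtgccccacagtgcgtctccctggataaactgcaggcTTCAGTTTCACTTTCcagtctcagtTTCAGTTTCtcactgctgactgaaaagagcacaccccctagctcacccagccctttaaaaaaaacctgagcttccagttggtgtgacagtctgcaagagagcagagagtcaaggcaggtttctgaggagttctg
Rsad2: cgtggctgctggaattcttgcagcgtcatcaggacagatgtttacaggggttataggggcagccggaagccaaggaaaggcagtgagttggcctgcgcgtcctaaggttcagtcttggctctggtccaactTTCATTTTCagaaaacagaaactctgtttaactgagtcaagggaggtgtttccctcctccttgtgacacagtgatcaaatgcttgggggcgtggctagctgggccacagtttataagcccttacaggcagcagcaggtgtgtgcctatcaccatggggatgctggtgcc
Isg15: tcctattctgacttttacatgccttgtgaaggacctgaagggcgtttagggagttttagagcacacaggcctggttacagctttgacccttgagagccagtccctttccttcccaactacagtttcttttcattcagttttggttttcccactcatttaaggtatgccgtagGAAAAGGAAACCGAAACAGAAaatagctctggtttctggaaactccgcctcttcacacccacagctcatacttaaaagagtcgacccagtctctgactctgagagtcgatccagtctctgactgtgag
Ifit1 and Isg15 hold 3 matches each, 2 of them to the stricter GAAACNGAA, while Rsad2 holds 1 match and none to the stricter form. A window was found for 18 of the 25 genes, and GAAANNGAA occurred in 10 of them (55.6%), against 9.76% of all 27025 genes with a window. GAAACNGAA occurred in 6 of the 18 (33.3%), against 2.15% of all genes. Among the interferon-gamma-inducible genes below, 13 had a window, of which 10 (76.9%) held the first motif and 6 (46.2%) the second. In the list of inflammatory cytokines and NF-kB feedback genes, 1 of 14 genes with a window held GAAANNGAA and 0 held GAAACNGAA. A match is a description of these letters, not a shown binding site.

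Sensors and signalling parts of the interferon pathway rose less uniformly: of 20 tested, 17 were called higher and 1 lower, with a median of 0.76. Stat2 stood at 198, 198 and 196 CPM in the EGFP- libraries, against 51.7, 49.3 and 46.9 CPM in the wild-type PBS libraries, a change of 2.0 ± 0.07. Ifih1, which encodes the double-stranded RNA sensor MDA5, averaged 142 ± 5.53 CPM in EGFP- cells and 41.4 ± 5.36 CPM in wild-type PBS cells. Irf7, the factor that amplifies interferon production, changed by 1.31 ± 0.09. The kinase gene Jak1 was the member called lower, at -0.20 ± 0.06, and the endosomal RNA sensor gene Tlr7 was not called (-0.10 ± 0.07). Every one of the 18 interferon-gamma-inducible GTPase, chemokine and antigen-processing genes was called higher, with a median of 1.96. Gbp2, a guanylate-binding protein that attacks the vacuoles of intracellular microbes, stood at 248, 277 and 263 CPM in the EGFP- libraries, against 41.3, 44.2 and 37.9 CPM in the wild-type PBS libraries (2.67 ± 0.09). Irgm2 changed by 2.66 ± 0.12 and Cxcl10, the ligand of Cxcr3, by 1.55 ± 0.10. The Gbp, Ifit3 and Hspa1 families hold near-identical copies, and the counting may have split reads among them, so values of single copies are uncertain.

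The other injured groups did not reach these levels. Ifit1 was at 46.7, 37.6 and 37.6 CPM in the EGFP+ libraries and at 14.9, 16.6 and 14.4 CPM in the wild-type bleomycin libraries. Rsad2 was at 207, 169 and 156 CPM in the EGFP+ libraries and at 73.1, 70.2 and 69.2 CPM in the wild-type bleomycin libraries, so the wild-type bleomycin and PBS libraries overlapped for Rsad2 while the EGFP- libraries stood clear of all 9 others. Over all tested genes, 9.93% (1615) had all 3 EGFP- libraries above all 9 other libraries, and 4.79% (780) had them below. Of the type I interferon list, 22 of 25 genes were above all 9 and 0 were below, the exceptions being Bst2, Epsti1 and Ifi27l2a. Of the interferon-gamma list, 14 of 18 were above all 9, and of the sensors and signalling genes 11 of 20. Other lists also set the EGFP- libraries apart. Of 9 heat shock genes, 5 lay above all 9 other libraries, and of 12 mitochondrially encoded transcripts, 8 lay below all 9. Of 12 dendritic cell markers, 4 lay above all 9, and their sum was 841.3 to 968.9 CPM in the EGFP- libraries, 559.4 to 610.8 in the EGFP+ libraries and 487.7 to 525.1 in the wild-type bleomycin libraries. Their part in the interferon differences was not tested.

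**Figure D2:**
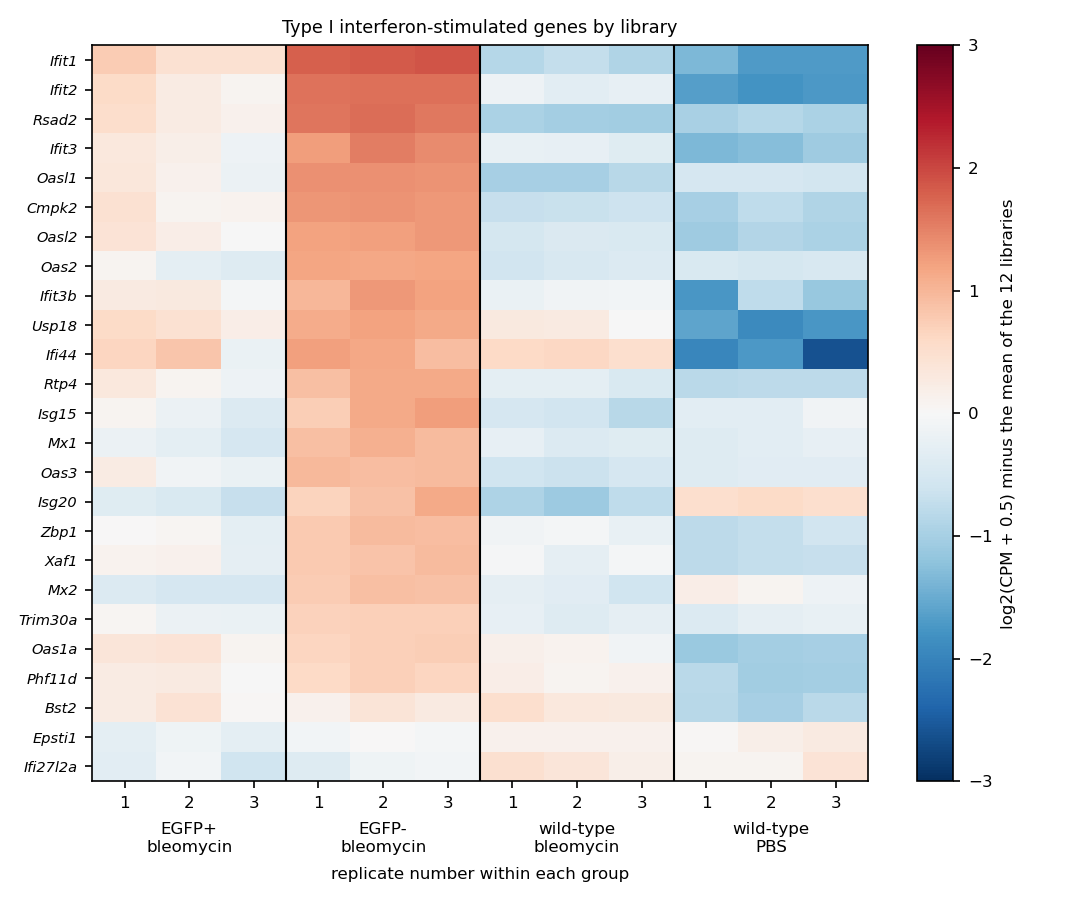
Each row is 1 of the 25 type I interferon-stimulated genes and each column 1 of the 12 day 7 libraries. Colour gives log2(CPM + 0.5) minus the mean of the 12 libraries, red above and blue below it, and the 3 EGFP- columns are the reddest in 22 rows.

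Tested directly against wild-type bleomycin cells, EGFP- cells had 4236 genes higher (26.0% of those tested) and 4833 lower (29.7%). This comparison shares the EGFP- libraries with the main one and equals the difference between the bleomycin-against-PBS changes of the 2 injured groups. The cells share treatment and day but differ in genotype, gate and sex-linked transcripts, which cannot be told apart. Of the 25 type I interferon genes, 22 were called higher and 2 lower in EGFP- than in wild-type bleomycin cells, with a median difference of 1.38. The EGFP+ cells come from the same genotype, treatment and day as the EGFP- cells. Against EGFP- cells they had 4045 genes higher (24.9%) and 4000 lower (24.6%). Here 0 of the 25 interferon genes were called higher in EGFP+ cells and 23 lower, with a median of -1.04, and all 18 interferon-gamma genes were lower.

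Inflammatory genes formed the second group that was highest in EGFP- cells. Of 19 cytokine and NF-kB feedback genes, 17 were called higher and 1 lower against wild-type PBS cells, with a median of 0.90, and 16 of the 19 lay above all 9 other libraries. Il1a, which encodes the alarmin interleukin-1 alpha, stood at 557, 672 and 666 CPM in the EGFP- libraries, against 89.6, 76.9 and 75.2 CPM in the wild-type PBS libraries, a change of 2.97 ± 0.08 (adjusted p = 5.49e-20). Il1b averaged 5394 ± 553 CPM in EGFP- cells and 1806 ± 63.2 CPM in wild-type PBS cells (1.58 ± 0.07). Il1rn, the secreted antagonist of the same receptor, changed by 1.86 ± 0.07, so agonists and antagonist were both higher. Tnf changed by 1.55 ± 0.10, Ptgs2, the inducible cyclooxygenase, by 1.34 ± 0.05, and the adhesion molecule gene Icam1 by 2.27 ± 0.09. Il6 was not called (-0.12 ± 0.08, adjusted p = 0.197), and Cd83, a surface protein of activated antigen-presenting cells, was the member called lower (-0.92 ± 0.07).

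Csf1, which encodes the growth factor that keeps macrophages alive, was among the genes that set EGFP- cells apart from the wild-type groups. It stood at 623, 729 and 775 CPM in the EGFP- libraries, against 72.2, 82.5 and 72.0 CPM in the wild-type PBS libraries, a change of 3.23 ± 0.15 (adjusted p = 1.83e-08). The EGFP+ libraries had 402, 287 and 295 CPM and the wild-type bleomycin libraries 48.8, 50.7 and 59.0 CPM, so every wild-type bleomycin library lay below every PBS library. By the rule for the comparison with wild-type bleomycin cells, Upp1, Il1f9, Gpr84, Jchain, Cxcl3, Chil1 and Amer2 were named with it. Among the largest falls by that rule, beside Spp1 and Y-linked genes, were Olfml3, Fcrls, Fcer2a, Atp6v0d2 and Nuak1. Il1f9, an interleukin-36 ligand, stood at 284, 325 and 349 CPM in the EGFP- libraries, at 18.1, 19.3 and 20.7 CPM in the wild-type bleomycin libraries and at 88.6, 95.2 and 96.5 CPM in the wild-type PBS libraries. Gpr84, a receptor for medium-chain fatty acids, stood at 173, 203 and 206 CPM in the EGFP- libraries, at 13.6, 12.2 and 12.7 CPM in the wild-type bleomycin libraries and at 11.1, 9.81 and 10.4 CPM in the wild-type PBS libraries. For Gpr84 the wild-type groups were close to each other. For Chil1, a chitinase-like protein, they were not: it averaged 181 ± 18.2 CPM in EGFP- cells, 14.5 ± 0.714 CPM in wild-type bleomycin cells and 139 ± 2.85 CPM in wild-type PBS cells. In the EGFP+ libraries Il1f9 stood at 148.3, 108.5 and 113.9 CPM and Gpr84 at 104, 75.9 and 74.6 CPM, while Chil1 averaged 69.05 ± 13.46 CPM. The EGFP+ and EGFP- libraries overlapped for Cxcl3 and Jchain. For Csf1, Il1f9, Gpr84 and Chil1 the EGFP+ libraries lay below the EGFP- libraries and above the wild-type bleomycin libraries.

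Markers of neutrophils, which also make Il1f9, Chil1 and Cxcr2, moved with these genes across the injured groups. The 14 neutrophil markers summed to 5050 to 6872 CPM in the EGFP- libraries, 2220 to 3065 in the EGFP+ libraries, 1621 to 1656 in the wild-type bleomycin libraries and 7497 to 8971 in the wild-type PBS libraries. Against wild-type PBS cells, the sum was thus lower in EGFP- cells, with 2 markers called higher and 7 lower, while the inflammatory and interferon lists were higher. Cxcr2 and Stfa2l1 were the 2 called higher. Against wild-type bleomycin cells, 9 of the 14 markers were called higher in EGFP- cells and 1 lower, in the same direction as the inflammatory list. The part of neutrophil RNA in the differences among the injured groups was not tested.

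Chemokine genes were mixed: of 23 ligands, 13 were called higher and 3 lower, and of 16 receptors, 7 higher and 4 lower. Ccl24, an eosinophil attractant, averaged 37.1 ± 4.41 CPM in EGFP- cells and 2.43 ± 0.326 CPM in wild-type PBS cells (3.93 ± 0.14). Ccl17, a ligand of Ccr4, averaged 152 ± 19.3 CPM in EGFP- cells and 21.3 ± 3.32 CPM in wild-type PBS cells (2.84 ± 0.11). Cxcl3, a ligand of Cxcr2, changed by 2.61 ± 0.10, and Cxcl13, which attracts B cells, by -3.93 ± 0.40. Among the receptors, Ccr2, by which classical monocytes leave the marrow, changed by 0.99 ± 0.06. Cx3cr1, the receptor of patrolling monocytes and many tissue macrophages, changed by -1.98 ± 0.16.

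**Figure D3:**
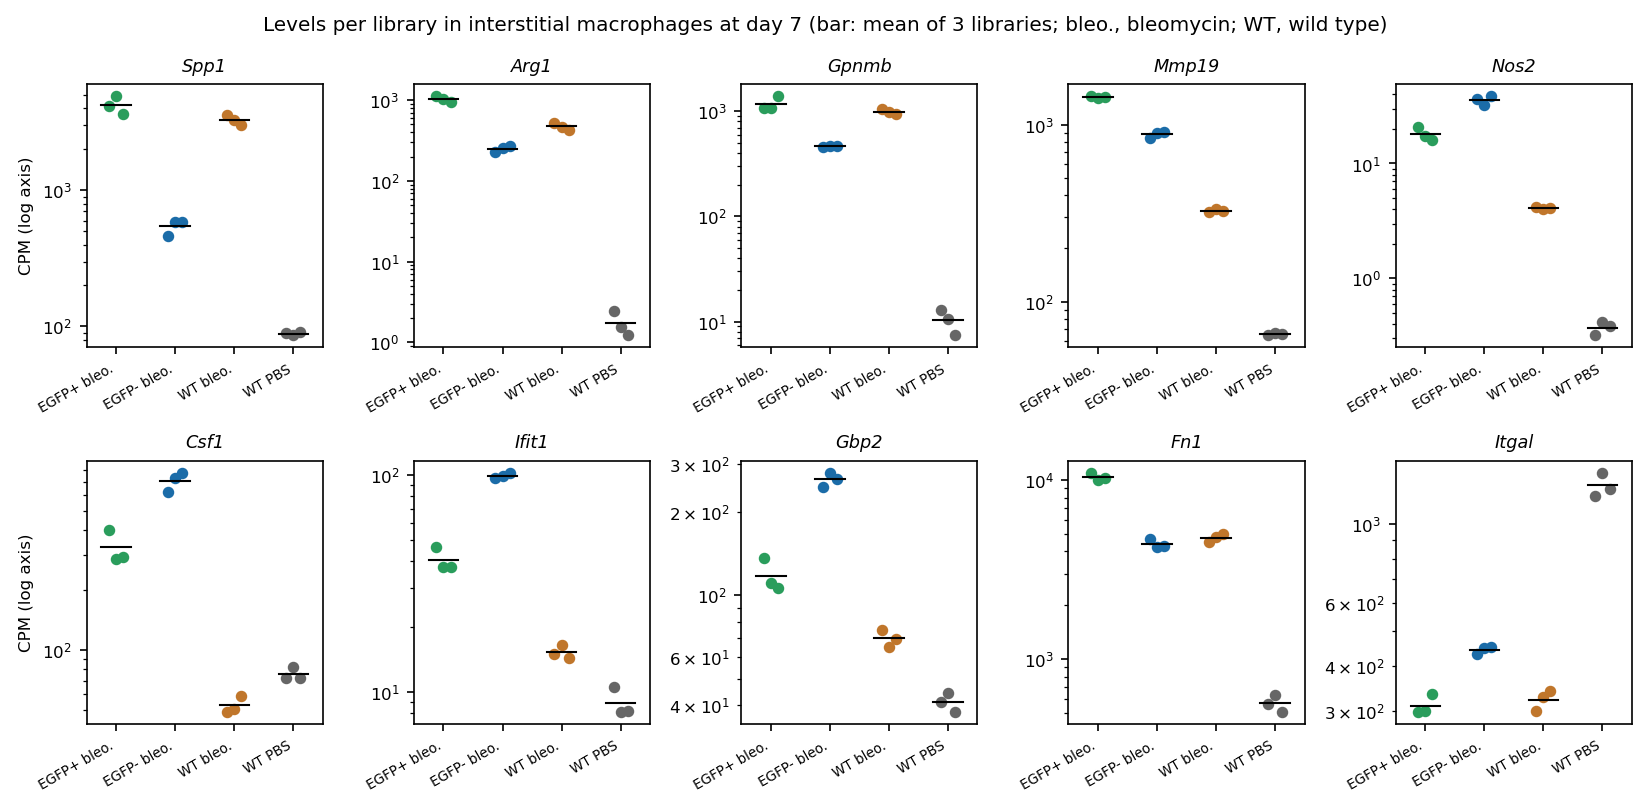
CPM (log axis) of 10 genes in each of the 12 day 7 libraries, with a bar at the mean of 3 libraries. In EGFP- bleomycin cells Ifit1, Gbp2, Csf1 and Nos2 lay above every other library, Spp1, Arg1 and Gpnmb lay between the other injured groups and the wild-type PBS group, and Itgal lay below every wild-type PBS library.

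Genes of lipid-associated macrophages, the programme that Spp1 belongs to, were raised in EGFP- cells relative to wild-type PBS cells. Of 20 such genes, 18 were called higher and 0 lower, with a median of 1.29. Lpl, lipoprotein lipase, stood at 632, 632 and 639 CPM in the EGFP- libraries, against 154, 140.5 and 126 CPM in the wild-type PBS libraries (2.18 ± 0.06, adjusted p = 1.40e-19). Fabp5, a fatty acid carrier, changed by 2.81 ± 0.10, Ctsl, a lysosomal protease, by 1.79 ± 0.07, and Trem2, a lipid receptor, by 1.06 ± 0.11. Apoe averaged 2866 ± 151 CPM in EGFP- cells and 3166 ± 344 CPM in wild-type PBS cells, and was not called (adjusted p = 0.238). Atp6v0d2, a subunit of the lysosomal proton pump, was not called either (0.57 ± 0.25, adjusted p = 0.0779), though its libraries did not overlap: it stood at 14.1, 14.2 and 14.5 CPM in the EGFP- libraries, against 11.5, 9.99 and 7.24 CPM in the wild-type PBS libraries. With DESeq2, or with only the 6 libraries compared, it was called.

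The same list was lower in EGFP- than in wild-type bleomycin cells, with 2 genes called higher and 16 lower and a median of -0.64. In EGFP+ against EGFP- cells, 20 of 20 were higher, with a median of 1.31. Lpl was at 2091, 2295 and 2259 CPM in the EGFP+ libraries and at 968, 963 and 1015 CPM in the wild-type bleomycin libraries. None of the 20 genes had its EGFP- libraries above, or below, all 9 others. Lysosomal genes had a smaller median of 0.33 against wild-type PBS cells, with 19 of 26 called higher and 4 lower. Grn, which encodes progranulin, changed by 1.65 ± 0.06, Naglu, an enzyme that degrades heparan sulfate, by 1.69 ± 0.08, and Ctss, a cathepsin of antigen processing, by 1.0 ± 0.06. Against wild-type bleomycin cells 2 of the 26 were called higher and 23 lower, and EGFP+ cells had 24 higher and 2 lower than EGFP- cells.

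Matrix and growth factor genes held some of the smallest p-values of the comparison. Of 29, 15 were called higher and 8 lower, with a median of 0.24. Mmp19, a matrix metalloprotease, stood at 846, 894 and 904 CPM in the EGFP- libraries, against 64.3, 66.0 and 65.6 CPM in the wild-type PBS libraries (3.75 ± 0.06, adjusted p = 4.46e-25). Mmp14, a membrane-bound collagenase, stood at 543, 484 and 461 CPM in the EGFP- libraries, against 45.7, 36.0 and 38.6 CPM in the wild-type PBS libraries (3.63 ± 0.08). Fn1, fibronectin, stood at 4694, 4219 and 4276 CPM in the EGFP- libraries, against 562, 632 and 507 CPM in the wild-type PBS libraries (2.95 ± 0.07). All EGFP- libraries lay above all PBS libraries for these 3 genes. Between EGFP- and wild-type bleomycin cells Fn1 was not called (-0.12 ± 0.07, adjusted p = 0.132), but it was called lower in EGFP- cells with no filter on low counts (-0.17, adjusted p = 0.00691) and without EGFP- replicate 1 (-0.19, adjusted p = 0.0301). Fn1 was higher in EGFP+ than in EGFP- cells by 1.25 ± 0.07. Timp1, an inhibitor of metalloproteases, changed by 3.66 ± 0.14 against wild-type PBS cells, Areg, an epithelial growth factor, by 1.39 ± 0.08 and Vegfa by 0.94 ± 0.05. Mmp13, a collagenase, changed by -1.97 ± 0.20, and Tgfb1 was not called (-0.03 ± 0.06).

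Cell cycle genes were called higher in EGFP- than in wild-type PBS cells at about the share of all genes, and were seldom called lower. Of 30, 9 were called higher (30.0%, against 31.1% of all genes) and 1 lower (3.33%, against 26.9%). Their median was 0.13. Mki67, a protein of dividing cells, stood at 134, 121 and 119 CPM in the EGFP- libraries, against 77.1, 70.8 and 66.2 CPM in the wild-type PBS libraries (0.80 ± 0.08). Top2a, the topoisomerase of replicating cells, averaged 36.6 ± 5.25 CPM in EGFP- cells and 35.9 ± 1.33 CPM in wild-type PBS cells and was not called. The one member called lower was Cenpa (-0.62 ± 0.07), a centromere histone. The other injured groups differed from this: against wild-type bleomycin cells 0 of the 30 were called higher and 28 lower in EGFP- cells, with a median of -1.40. Top2a averaged 116 ± 6.30 CPM in the wild-type bleomycin libraries. In EGFP+ against EGFP- cells, 28 were higher and 1 lower, with a median of 1.14.

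Genes of classical monocytes were mostly higher in EGFP- than in wild-type PBS cells and genes of nonclassical monocytes mostly lower. Of 14 classical genes, 10 were called higher and 3 lower, with a median of 1.02. Vcan, a matrix proteoglycan of monocytes, stood at 324, 299 and 296 CPM in the EGFP- libraries, against 18.8, 21.5 and 22.6 CPM in the wild-type PBS libraries (3.87 ± 0.10). Fcgr1, the high-affinity IgG receptor, changed by 2.64 ± 0.08, and Cd14, the lipopolysaccharide co-receptor, by 1.38 ± 0.07. Plac8 (-1.22 ± 0.08) and Msrb1 (-0.43 ± 0.07) were among those called lower. Of 15 nonclassical genes, 1 was called higher and 13 lower, with a median of -1.66. Itgal, the alpha chain of the integrin LFA-1, stood at 431, 448 and 451 CPM in the EGFP- libraries, against 1200.0, 1389 and 1256 CPM in the wild-type PBS libraries (-1.53 ± 0.06, adjusted p = 1.54e-16). Ace, the angiotensin-converting enzyme, averaged 40.4 ± 5.36 CPM in EGFP- cells and 1164 ± 97.1 CPM in wild-type PBS cells (-4.85 ± 0.26), and Treml4 changed by -1.89 ± 0.08. The wild-type bleomycin libraries were also low for Itgal, at 299, 328 and 340.4 CPM.

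Genes that mark resident tissue macrophages divided. Of 19 genes of resident interstitial macrophages, 6 were called higher and 8 lower. Cbr2, a carbonyl reductase, changed by -4.99 ± 0.24, Folr2, a folate receptor, by -2.95 ± 0.51, and Timd4, a phosphatidylserine receptor, by -2.38 ± 0.20. Mertk, a receptor for the uptake of dying cells, moved the other way, with 89.2 ± 11.8 CPM in EGFP- cells and 17.0 ± 5.13 CPM in wild-type PBS cells (2.40 ± 0.16). Mrc1 and the complement genes C1qa, C1qb and C1qc were not called, and C1qa averaged 369 ± 54.3 CPM in EGFP- cells and 436 ± 101 CPM in wild-type PBS cells. Of 16 genes of alveolar macrophage identity, 4 were called higher and 7 lower. Lpl (2.18 ± 0.06) and Siglecf (1.31 ± 0.12) were among those called higher. The summed level of the list was also higher, at 2716 to 2965 CPM in the EGFP- libraries, against 1124 to 1256 in the wild-type PBS libraries. Pparg and Cidec fell. Pparg, the nuclear receptor that sets alveolar macrophage fate, stood at 10.8, 9.81 and 12.7 CPM in the EGFP- libraries, against 57.5, 54.1 and 69.3 CPM in the wild-type PBS libraries (-2.43 ± 0.13). Cidec, a lipid droplet protein, had 0 counts in the EGFP- libraries and averaged 2.36 ± 0.770 CPM in wild-type PBS cells.

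Alternative activation genes beside Arg1 went both ways, with 9 of 16 called higher and 4 lower. Chil3, a chitinase-like protein, changed by 2.11 ± 0.22 and Egr2, a factor of interleukin-4-treated macrophages, by 2.30 ± 0.09. Retnla, another textbook gene of that state, changed by -3.37 ± 0.23. Of 12 genes of MHC class II and costimulation, 6 were called higher and 5 lower: Cd74, the invariant chain, changed by -0.58 ± 0.07 and H2-Aa by -0.27 ± 0.07, while the costimulatory gene Cd80 changed by 0.84 ± 0.06. Of 8 tested Fc receptor genes, 3 were called higher and 4 lower. Of 21 transcription factor genes, 11 were called higher and 8 lower. Tfec, a relative of the lysosomal regulator Tfeb, stood at 34.9, 43.2 and 39.0 CPM in the EGFP- libraries, against 3.95, 3.45 and 3.21 CPM in the wild-type PBS libraries (3.46 ± 0.12). Cebpa, a myeloid factor, changed by 1.35 ± 0.06 and Irf4, a factor of alternative activation and of dendritic cells, by -1.51 ± 0.08.

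Among 9 genes for osteopontin receptors, 3 were called higher and 5 lower. The integrin chain gene Itga5 changed by 1.70 ± 0.06 and Itga4 by -1.53 ± 0.09. Cd44, the hyaluronan receptor that also binds osteopontin, averaged 1956 ± 33.9 CPM in EGFP- cells and 2014 ± 74.6 CPM in wild-type PBS cells and was not called. It was nevertheless higher in EGFP- than in wild-type bleomycin cells, which averaged 912 ± 23.3 CPM, by 1.10 ± 0.05.

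Metabolic lists moved mostly upward. Of 20 glycolysis and hypoxia genes, 18 were called higher and 0 lower, with a median of 0.87. Pgam1, a glycolytic mutase, changed by 1.42 ± 0.06, Hk2, an inducible hexokinase, by 1.19 ± 0.06, and Ldha, which makes lactate, by 1.03 ± 0.06. Of 21 nuclear respiratory chain genes, 15 were called higher and 0 lower, with a smaller median of 0.39. Of 21 cholesterol synthesis genes, 13 were called higher and 0 lower, with Sqle, squalene epoxidase, at 1.34 ± 0.08. Antioxidant and haem genes of the Nrf2 type had 12 of 15 called higher and 2 lower, with a median of 0.87. Gclm, a subunit of the enzyme that makes glutathione precursors, changed by 1.40 ± 0.07, and Slc7a11, the cystine importer, averaged 1151 ± 34.8 CPM in EGFP- cells and 569 ± 35.9 CPM in wild-type PBS cells. Slc7a11 was also higher in EGFP- than in wild-type bleomycin cells, by 2.88 ± 0.07 on the log2 scale. Of 20 lipid uptake and storage genes, 12 were called higher and 7 lower. The scavenger receptor genes Olr1 (2.59 ± 0.06) and Msr1 (2.37 ± 0.06) rose, while Cd36, another scavenger receptor, changed by -1.04 ± 0.05. Of 14 complement genes, 7 were called higher and 3 lower, with C3ar1, the receptor of the C3a fragment, at 1.47 ± 0.11. Respiratory chain genes went the other way against wild-type bleomycin cells, where 0 were called higher and 19 lower.

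**Figure D4:**
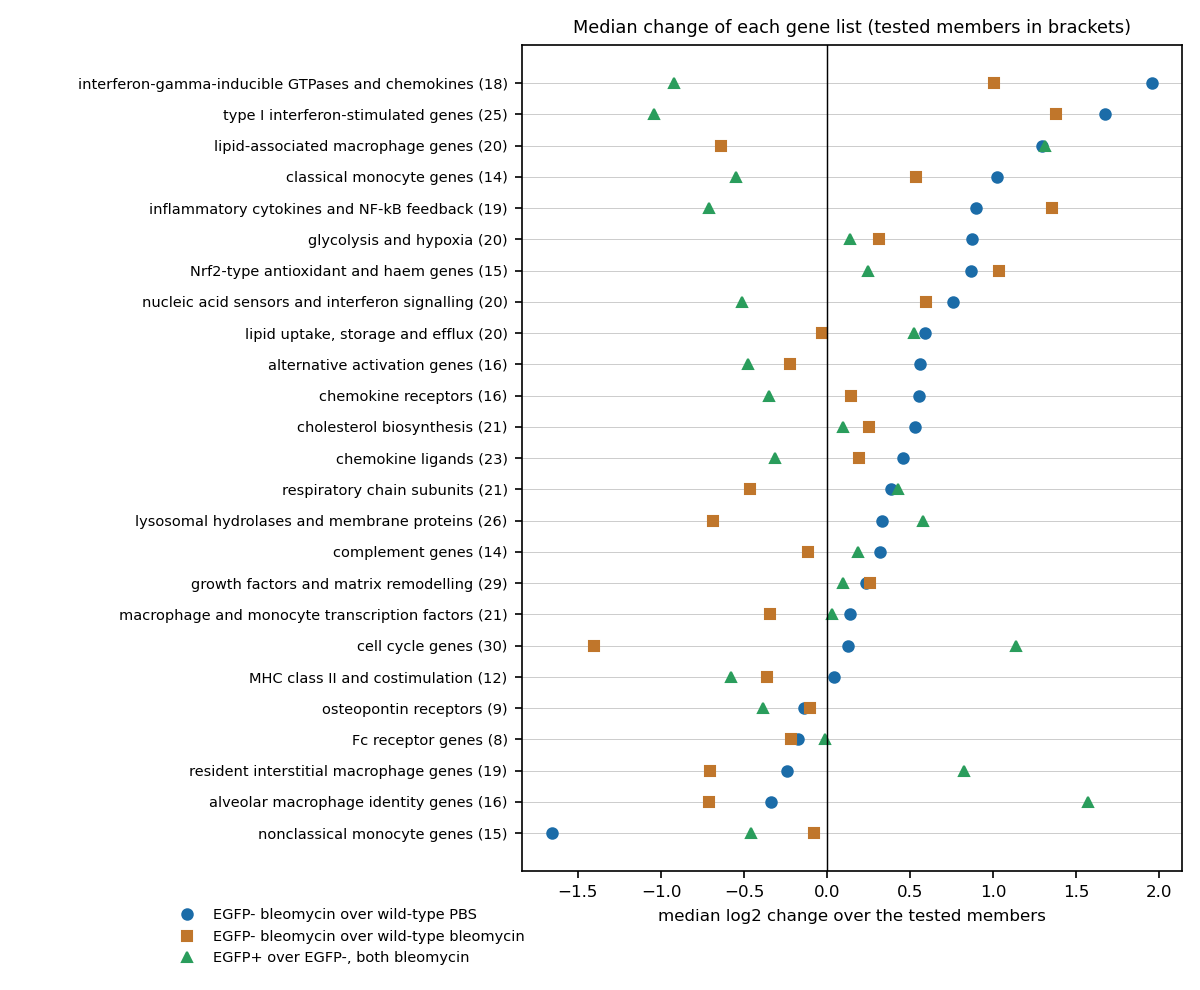
Median log2 change over the tested members of each list (number in brackets) in 3 comparisons: EGFP- bleomycin over wild-type PBS (blue circles), EGFP- bleomycin over wild-type bleomycin (orange squares) and EGFP+ over EGFP- (green triangles). The comparisons share libraries and are not independent, and the cell cycle list is at 0.13, -1.40 and 1.14 while the type I interferon list is at 1.68, 1.38 and -1.04.

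The gate was checked against markers of macrophages and of other cells. The 12 macrophage core markers were all expressed and summed to 12420 to 13660 CPM in the EGFP- libraries, against 16410 to 16520 in the wild-type PBS libraries, with 6 called higher and 6 lower. Within that sum Lyz2, a lysozyme, averaged 3104 ± 185 CPM in EGFP- cells and 8060.0 ± 80.3 CPM in wild-type PBS cells. The wild-type PBS libraries held far more transcript of lung lining cells. The 13 epithelial markers summed to 140.1 to 148.5 CPM in the EGFP- libraries, against 4447 to 6538 in the wild-type PBS libraries, with 2 called higher and 11 lower. The 2 called higher were the adhesion molecule genes Cdh1 (1.30 ± 0.10) and Epcam (0.84 ± 0.20). Scgb1a1, the secretoglobin of club cells, stood at 28.8, 22.0 and 23.0 CPM in the EGFP- libraries, against 3983, 2327 and 2880.0 CPM in the wild-type PBS libraries. Fibroblast markers summed to 33.05 to 80.19 CPM in the EGFP- libraries, against 251.1 to 351.6 in the wild-type PBS libraries, with 9 of 9 tested called lower. B cell markers summed to 743.3 to 802.5 CPM in the EGFP- libraries, against 1745 to 1986 in the wild-type PBS libraries, with 9 of 10 called lower. The falls of genes that these cells share with macrophages therefore stand beside falls of their markers, and the part of other cells in them was not tested.

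Plasma cell markers moved the other way. They summed to 1216 to 1295 CPM in the EGFP- libraries, against 317.3 to 340.7 in the wild-type PBS libraries, with 7 of 8 called higher. The sum was 780.8 to 1301 CPM in the EGFP+ libraries. In the wild-type bleomycin libraries it was 280.5 to 293.5 CPM, so the injured wild-type cells did not share this rise. Igha, the constant region of immunoglobulin A, stood at 657, 721 and 651 CPM in the EGFP- libraries, against 63.1, 58.4 and 44.0 CPM in the wild-type PBS libraries. Among 12 dendritic cell markers 5 were called higher and 3 lower, and they summed to 841.3 to 968.9 CPM in the EGFP- libraries, against 605 to 608.6 in the wild-type PBS libraries. T cell markers summed to 301.7 to 326.6 CPM in the EGFP- libraries, against 241.9 to 257.9 in the wild-type PBS libraries, with 2 of 11 called higher and 7 lower. NK cell markers summed to 70.68 to 82.21 CPM in the EGFP- libraries, against 97.94 to 102.4 in the wild-type PBS libraries. Of the 9 NK genes, 1 was called higher and 5 lower, and the second number was 3 under DESeq2 or without EGFP- replicate 2 or 3 or wild-type PBS replicate 2 or 3. Eosinophil, basophil and mast cell markers had 0 of 9 called higher and 7 lower, and Ms4a2, a chain of the IgE receptor, had 0 counts in the EGFP- libraries. Endothelial markers had 1 of 9 called higher and 6 lower, and erythroid and platelet markers 0 of 5 called higher and 4 lower.

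Lists that can reflect cell handling, among other things, also differed. Heat shock genes summed to 6931 to 7217 CPM in the EGFP- libraries, against 3572 to 3749 in the wild-type PBS libraries, with 8 of 9 called higher and 0 lower. Their sum was 6155 to 6578 CPM in the EGFP+ libraries and 5132 to 5270 in the wild-type bleomycin libraries, so it was above PBS in every injured group. Hspa1b, an inducible chaperone, averaged 564 ± 18.8 CPM in EGFP- cells and 86.0 ± 12.7 CPM in wild-type PBS cells. Immediate early genes, which respond to tissue dissociation, had 3 of 13 called higher and 8 lower. Mitochondrially encoded transcripts summed to 8138 to 8818 CPM in the EGFP- libraries, against 13640 to 14680 in the wild-type PBS libraries, with 0 of 12 called higher and 8 lower. They summed to 9874 to 12010 CPM in the EGFP+ libraries and 11900 to 12360 in the wild-type bleomycin libraries. The part of handling in these lists, and of these lists in the other differences, was not tested.

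**Figure D5:**
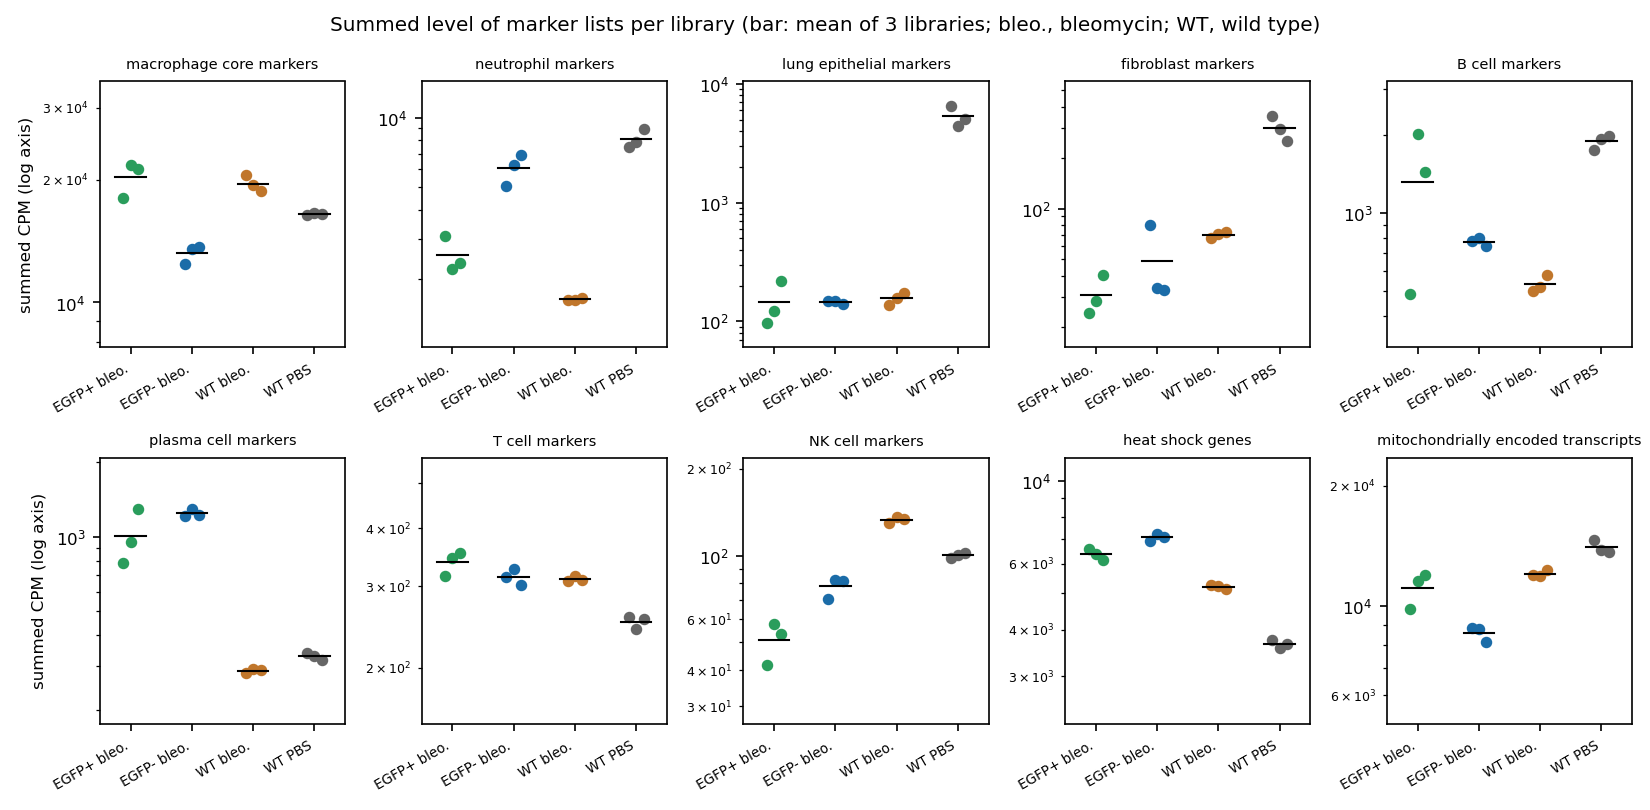
Summed CPM (log axis) of 10 marker lists in each of the 12 day 7 libraries, with a bar at the mean of 3 libraries. Epithelial markers reached 148.5 CPM in EGFP- libraries and were at 4447 CPM or more in wild-type PBS libraries, while neutrophil markers were higher in EGFP- than in EGFP+ and wild-type bleomycin libraries.

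Genes that differ between mouse strains, and genes near the knock-in allele, were read because the labels do not give the strain of the reporter line. Nnt, which carries a deletion in C57BL/6J, averaged 10.5 ± 1.25 CPM in EGFP- cells and 17.3 ± 0.538 CPM in wild-type PBS cells, so it was detected in both. Mx1, which is defective in many laboratory strains, averaged 103 ± 5.48 CPM in EGFP- cells and 41.6 ± 1.87 CPM in wild-type PBS cells. Of 79 genes in the table within 2000000 bases of the Spp1 start, 27 were tested, and 12 were called higher and 10 lower. Gbp6 (4.07 ± 0.19) and Gbp4 (1.66 ± 0.10) lie in that interval and are also members of the interferon-gamma list. Abcg3, a transporter gene of the interval, changed by -1.63 ± 0.10 and Arhgap24, a GTPase-activating protein gene, by 1.33 ± 0.08. Changes linked to the knock-in allele cannot be told apart from those of treatment here.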

How the data were processed

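Poly(A) RNA was sequenced from flow-sorted lung macrophages. The authors deposited whole-number read counts per gene, with no scaling seen in the values. Per the submitters' processing notes, FastQC 0.11.5, Trimmomatic 0.38, HISAT2 2.1.0, SAMtools and featureCounts 1.6.3 were used with GRCm38. The annotation release and strand setting are not given in the sources used here, so reads of overlapping or antisense genes may be shared. Another 3 count columns matched no sample and were not used.

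The 12 day 7 interstitial macrophage libraries (4 groups of 3) were fitted together in R 4.3.3 with edgeR 4.0.16 (TMM factors, low genes removed by filterByExpr). Each gene was tested with the robust form of the quasi-likelihood F test, which is 2-sided, with p-values adjusted by Benjamini-Hochberg and a threshold of 0.05. CPM are counts scaled to library size after the TMM factors. Dividing the size of a log2 change by the root of its F value gave its SE. The fit was tried on simulated data in which 200 genes had known changes. Far more genes were called in the real data, so that trial does not cover a difference this broad. Matching library numbers were not used as a block. The genes described were Spp1, Siglecf and Itgam, then the 10 that rose and the 10 that fell most in the first comparison and in that with wild-type bleomycin cells (at least 10 CPM in the higher group, no overlap, predicted genes, pseudogenes and immunoglobulin segments left out), then 4 members of each list by p. Other list members named in the text were chosen after their values were seen. The members and lists were chosen with earlier results of these data known. Alternatives were RLE factors, DESeq2 1.42.0, no filter, only the 6 libraries compared, a replicate block, each library left out and, added after seeing the data, chromosomes X and Y left out. For the last of these the fit was kept and only the adjustment was repeated. Promoters are from RefSeq. Tables and figures used Python 3.11.15, pandas 2.3.3 and matplotlib 3.10.9.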

Additional observations from a re-analysis of the deposited data

How the results depend on the processing

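Against wild-type PBS cells, the count of genes higher in EGFP- cells ran from 4511 (only the 6 libraries compared) to 5131 (no filter on low counts), and the count of genes lower from 4142 to 4704. Leaving out each library in turn gave 4606 to 4868 higher and 4142 to 4377 lower. Against wild-type bleomycin cells the same step gave 3767 to 3920 higher and 4360 to 4710 lower, and for EGFP+ against EGFP- cells 3532 to 4062 higher and 3424 to 3646 lower. No count over all genes tested moved by over 1.5 times in these alternatives. Among the list counts given against wild-type PBS cells, that of NK cell markers called lower did, with 3 in place of 5, under DESeq2 and without any 1 of 4 libraries named in the text. No named gene reversed its direction where it was called. In the comparison with wild-type bleomycin cells, Fn1 was among the named genes that changed their call. Among named genes in the comparison with wild-type PBS cells, 2 changed their call: Atp6v0d2 was called under DESeq2 (adjusted p = 0.023) and with only the 6 libraries compared (0.00295), and Gp9, a platelet gene near the lower limit of detection, lost its call in 9 alternatives, among them a replicate block (0.0549). The cause was not tested. Between EGFP- and wild-type PBS libraries of the same number, the correlation of deviations was 0.0797, -0.0292 and 0.043. Between EGFP+ and EGFP- libraries of the same number it was -0.0191, 0.0202 and -0.025. These values gave no sign of pairing by number, but they cannot show whether libraries came from the same mice. With a replicate block, 4974 genes were higher and 4297 lower in EGFP- than in wild-type PBS cells. Against wild-type bleomycin cells, 4162 were higher and 4752 lower in EGFP- cells. For EGFP+ against EGFP- cells, 3967 were higher and 3910 lower.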
